A study of Mus musculus with 2 samples.

Results

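The genes that build the contractile apparatus of skeletal muscle and couple its electrical excitation to contraction were examined for binding of NRF1, nuclear respiratory factor 1, near their transcription starts. The rule for the 42 genes is their function and uses no measured value, although earlier results of these data were known when they were listed. They are 42 of the 21000 protein-coding genes that had a known RefSeq start on the chromosomes of the peak list. By role they comprise 10 genes of the thick filament, 13 of the thin filament, 7 of the Z-disc and intermediate filament, 4 of the titin and M-band group, 7 of excitation-contraction coupling, and dystrophin at the sarcolemma.

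Chromatin immunoprecipitation followed by sequencing (ChIP-seq), in which an antibody recovers a protein together with the DNA it occupies, was performed with an NRF1 antibody on skeletal muscle of wild-type mice. The study's methods describe mice on a C57Bl/6J background, and its supplement gives an age of 9 weeks for the wild-type muscle. There was 1 group of 2 libraries, both labelled with the NRF1 antibody, and 1 deposited list of 3226 peaks, which is not the number of NRF1 sites in the study's text. The label of replicate 2 conflicts with the reporting summary, where it is listed as input. The peaks are named after replicate 1 only, and no value per replicate was used, so no value below has a replicate error. A list of peaks holds no expression values, so the labelled tissue could not be checked against muscle markers.

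The sarcomere is the repeating unit of the myofibril, in which myosin thick filaments pull on actin thin filaments anchored at the Z-disc, while titin and M-band proteins keep the filaments in register. Contraction begins when depolarisation of the transverse tubule opens the calcium release channel of the sarcoplasmic reticulum, and calcium then binds troponin on the thin filament. NRF1 is a broadly expressed transcription factor known for genes of mitochondrial respiration, and it binds a palindrome that contains CpG dinucleotides, GCGCATGCGC.

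A peak was assigned to a promoter when its summit lay from 1000 bp before to 100 bp after a start. By this rule 4 of the 42 genes had a promoter peak, namely Mylpf, Tpm1, Actn3 and Dmd. This is 9.52% of them, with a Wilson 95% interval of 3.77 to 22.1% for counting error only, and 2804 of all 21000 genes (13.4%) had one. The share of the muscle genes was thus near the background, and the interval included it. The other 38 genes had no promoter peak in this list, which depends on a read depth that the list does not give.

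The DNA under these 4 summits is shown because Mylpf and Tpm1 held the NRF1 palindrome there and Actn3 and Dmd did not. Each sequence is from the GRCm38 (mm10) assembly of RefSeq, on the strand of the muscle gene, with the best match to the NRF1 palindrome in capitals where it had at most 1 mismatch. At Dmd the capitals mark a CArG box, the site read by serum response factor, and at Actn3 nothing is marked. The Mylpf stretch is chr7:127208620-127208775 on the plus strand, the Tpm1 stretch chr9:67043947-67044027 on the minus strand, the Actn3 stretch chr19:4878470-4878550 on the minus strand and the Dmd stretch chrX:82948751-82948831 on the plus strand.
Mylpf: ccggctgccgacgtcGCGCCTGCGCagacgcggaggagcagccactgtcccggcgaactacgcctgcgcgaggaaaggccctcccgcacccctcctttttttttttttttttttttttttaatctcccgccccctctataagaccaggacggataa
Tpm1: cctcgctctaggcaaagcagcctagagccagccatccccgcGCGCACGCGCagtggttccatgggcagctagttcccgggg
Actn3: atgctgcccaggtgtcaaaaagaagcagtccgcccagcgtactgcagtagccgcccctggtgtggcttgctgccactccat
Dmd: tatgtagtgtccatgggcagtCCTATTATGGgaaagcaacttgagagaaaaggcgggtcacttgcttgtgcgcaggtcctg

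Mylpf encodes the fast skeletal regulatory light chain of myosin. Its peak, chr7:127208526-127208917, had a fold enrichment over the control background of 18.8 and a −log10 q-value of 62.4, and it was stronger than 84.0% of the 2607 promoter peaks. The median fold enrichment of those promoter peaks was 11.1, with quartiles of 7.9 and 16.4. Among the 4 genes Mylpf therefore had the strongest peak, and it was the only one above the upper quartile. The summit at 127208735 lay 164 bp before the start at 127208899. That start gives a protein of 149 residues, and the summit lay 2873 bp before the other known start, at 127211608, which gives a protein of 169 residues. These starts differed in their DNA, since the promoter of the first held 108 CpG dinucleotides at an observed to expected ratio of 0.884, whereas that of the second had a ratio of 0.14. The same summit lay 267 bp before the start of Tbc1d10b, on the opposite strand, so a single peak served as promoter peak of both genes. The palindrome with 1 mismatch, GCGCCTGCGC, lay at 127208635 to 127208644, centred 95.5 bp from the summit.

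Tpm1 encodes alpha-tropomyosin, which lies along the actin filament and gates myosin access. Its peak, chr9:67043897-67044087, had a fold enrichment of 5.16 and a −log10 q-value of 5.41, stronger than 5.75% of promoter peaks. The summit at 67043987 lay inside the gene, 116 bp before an internal start at 67043871 and 5226 bp after the first start at 67049213. The bound start is thus that of the short tropomyosins, with proteins of 248 and 245 residues, and the first start, which gives the long tropomyosins of 284 and 281 residues, had no peak in its promoter. The internal promoter had 50 CpG at a ratio of 0.702, and the first promoter 56 CpG at a ratio of 0.573. The palindrome with 1 mismatch, GCGCACGCGC on the strand of the gene, was centred 5.5 bp from the summit, closer than at Mylpf.

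Actn3 encodes alpha-actinin-3, the Z-disc actin crosslinker of fast fibres. Its peak, chr19:4878442-4878641, had a fold enrichment of 4.84 and a −log10 q-value of 5.17, stronger than 3.53% of promoter peaks, and was the weakest of the 4. The summit at 4878510 lay 601 bp before the Actn3 start and 158 bp before the start of Zdhhc24 on the opposite strand, so it was nearer to the neighbour. No match with at most 1 mismatch lay within 100 bp of the summit, where the best had 3 mismatches. Such a poor best match was uncommon, being found at 235 of the 2607 promoter peaks (9.01%). Within 100 bp of this summit the CpG ratio was 0.538, and 67 promoter peaks (2.57%) had a ratio as low or lower.

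Dmd encodes dystrophin, which links the cytoskeleton beneath the sarcolemma to the extracellular matrix. Its peak, chrX:82948758-82948917, had a fold enrichment of 8.15 and a −log10 q-value of 9.51, stronger than 26.4% of promoter peaks. The summit at 82948791 lay 79 bp before the start at 82948870, which gives the full-length protein of 3678 residues and is the start used in muscle. No other start lay so close, and the promoter of the downstream start, at 85048295, with proteins of 340 to 635 residues, had its nearest summit 525411 bp away. The promoter of the full-length start held only 5 CpG at a ratio of 0.15 and a GC content of 34.9%. Within 100 bp of the summit the CpG ratio was 0.195, the lowest of all 2607 promoter peaks, whose median was 0.926. Among the 3844 starts in the annotation with a promoter CpG ratio at or under that of Dmd, this was the only start with a promoter peak (0.026%), against 3206 of all 26032 starts (12.3%). The best match to the palindrome had 3 mismatches, whereas 65.9% of the promoter peaks had one with at most 1 mismatch within 100 bp.

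**Figure D1:**
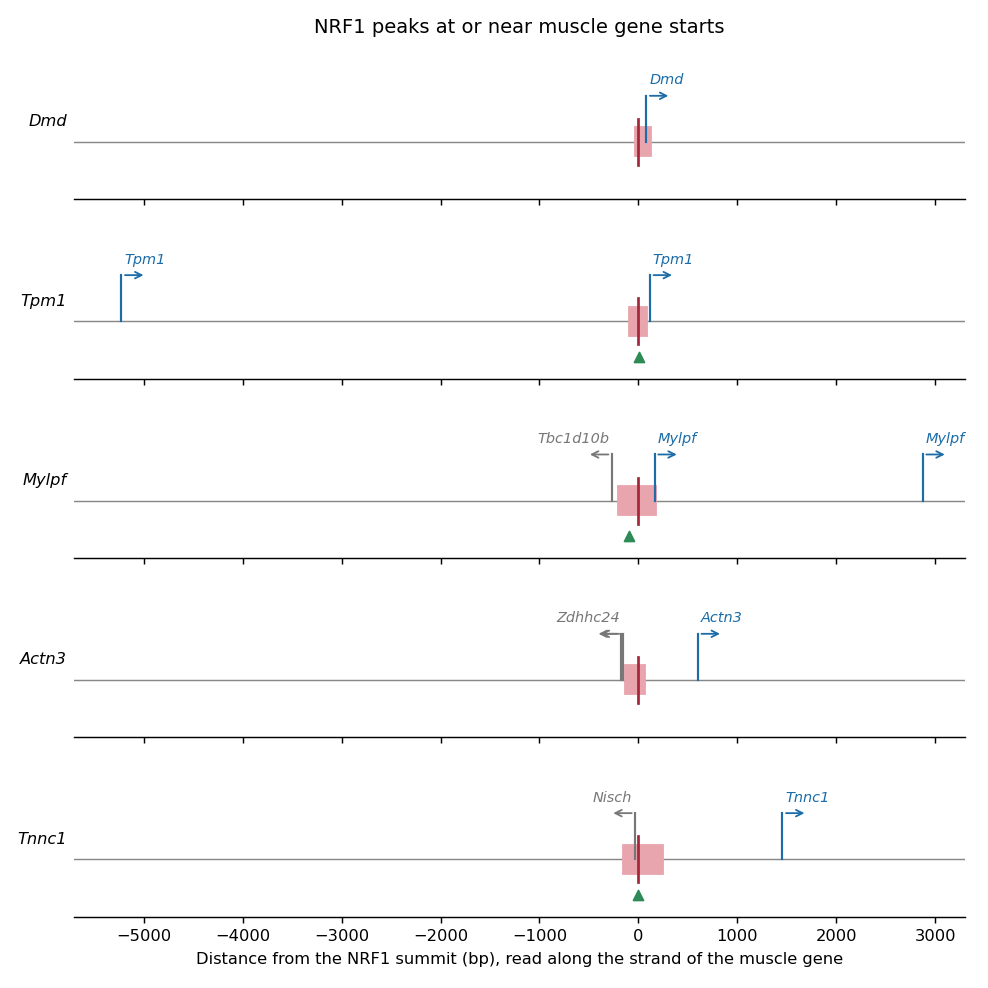
Windows around the summits at Mylpf, Tpm1, Actn3, Dmd and Tnnc1, with the distance from the summit in bp along the strand of the muscle gene on the x axis. The pink box is the deposited peak, the red line its summit, blue arrows are known starts of the muscle gene, grey arrows those of neighbouring genes, and green triangles mark the palindrome with at most 1 mismatch. The summits at Mylpf, Actn3 and Tnnc1 lie between the muscle gene and an oppositely directed neighbour, and no triangle stands at Actn3 or Dmd.

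Tnnc1, which encodes the slow skeletal and cardiac troponin C, lay just outside the promoter limit. A peak at chr14:31206699-31207106 with a fold enrichment of 24.8, above 94.1% of promoter peaks, had its summit 1455 bp before the Tnnc1 start. That summit lay 31 bp before the start of Nisch, the neighbour on the opposite strand, and the match ACGCATGCGC was centred 6.5 bp from the summit. The Tnnc1 promoter itself had a CpG ratio of 0.151. The sequence around the summit, chr14:31206817-31206897 on the plus strand, is given because it shows the strongest peak with a summit within 10000 bp of a start of the 42 genes, with its match in capitals.
Tnnc1 upstream: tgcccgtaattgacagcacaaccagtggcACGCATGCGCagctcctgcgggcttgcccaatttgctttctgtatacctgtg

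**Figure D2:**
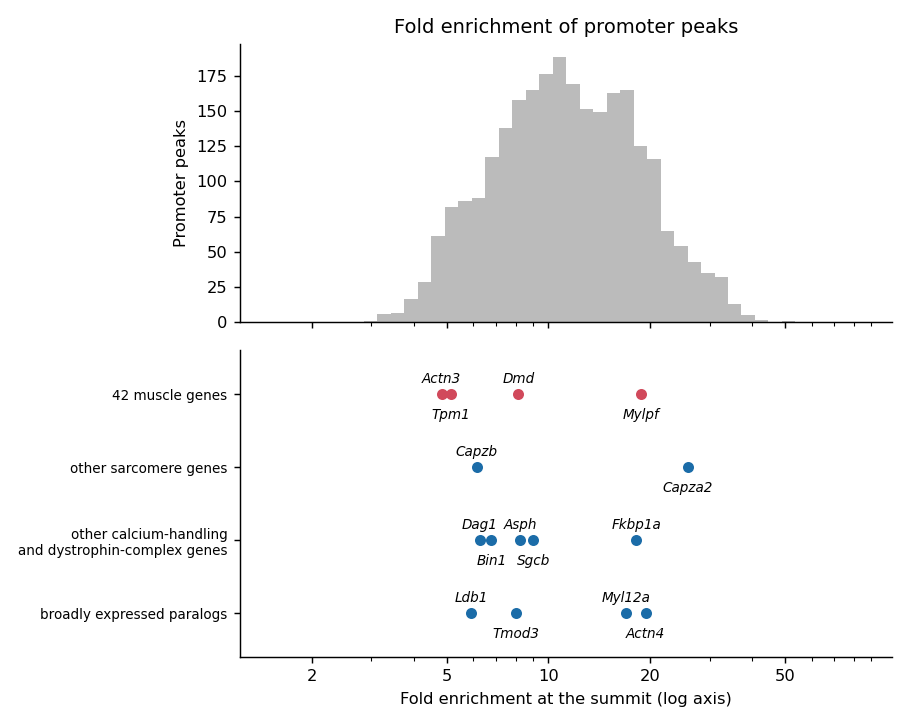
Histogram of the fold enrichment of the 2607 promoter peaks on a log axis, with 1 point for each promoter peak of the muscle genes and of the 3 lists of related genes. Of the muscle genes, Mylpf at 18.8 lies right of the median of 11.1, and Dmd at 8.15, Tpm1 at 5.16 and Actn3 at 4.84 lie left of it.

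Most of the muscle genes had promoters with few CpG dinucleotides. A promoter was called CpG-rich when its CpG ratio was at least 0.6 and its GC content at least 50%. Only Mylpf, Tpm1 and Tpm2 had such a promoter, 3 of 42 (7.14%), against 5788 of all 21000 genes (27.6%). The highest promoter CpG ratio of each muscle gene had a median of 0.253, with quartiles of 0.183 and 0.382 and a range of 0.0803 to 0.884, whereas the median over all genes was 0.472. The muscle genes were not poor in G and C, with a median GC content of 52.8% against 50.3%, and it was the CpG dinucleotide that was scarce, with a median of 16.5 per promoter against 32. A ratio under 0.3 was found for 25 of the 42 genes and for 33.6% of all genes.

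**Figure D3:**
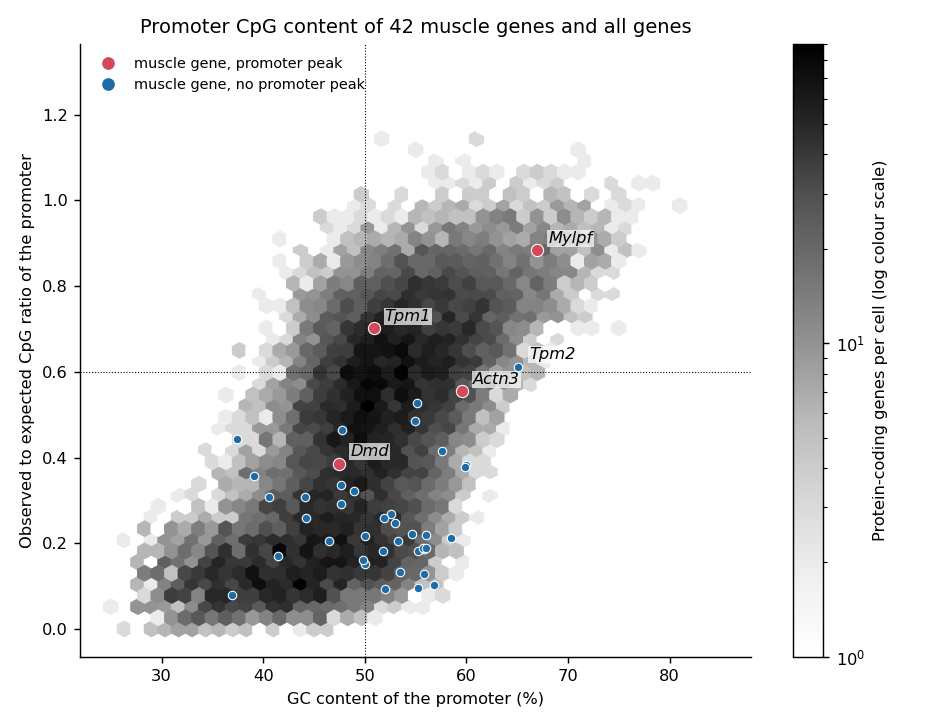
Observed to expected CpG ratio (y axis) against GC content in percent (x axis), for the promoter of highest ratio of each gene. All genes are in grey and the 42 muscle genes are coloured by whether they had a promoter peak. Dotted lines mark a ratio of 0.6 and a GC content of 50%. Most muscle genes lie below a ratio of 0.3, and the point of Dmd is its other promoter, not the one with the peak.

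Within the CpG-rich class 2 of the 3 muscle genes had a promoter peak, Mylpf and Tpm1, and in that class 27.7% of all genes had one. In the other class 2 of 39 had one (5.13%), Actn3 and Dmd, and 7.9% of all genes did. A class of 3 genes is too small for a share to be read, and in the other class the share lay near its background. With CpG content taken within 200 bp of the start, 1 of the 5 CpG-rich muscle genes had a promoter peak. It was Tpm1, and 23.1% of all CpG-rich genes had one in that setting. By CpG ratio of the whole promoter, a promoter peak was found at 0.0424% of all genes with a ratio under 0.2 and at none of the 14 muscle genes there. From 0.2 to 0.4 it was found at 2.15% of all genes and at 1 of 19 muscle genes, Dmd. Dmd stands in that class through its downstream promoter, at 0.386, and the promoter that held its peak had a ratio of 0.15. From 0.4 to 0.6 a promoter peak was found at 14.6% of all genes and at 1 of 6 muscle genes, Actn3. The share of all genes rose to 25.9% from 0.6 to 0.8, where Tpm1 had a peak and Tpm2 did not, and to 33.3% from 0.8 upward, where Mylpf was the only muscle gene. Thus 33 of the 42 genes had a ratio under 0.4, where at most 2.15% of all genes in a class had a promoter peak.

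**Figure D4:**
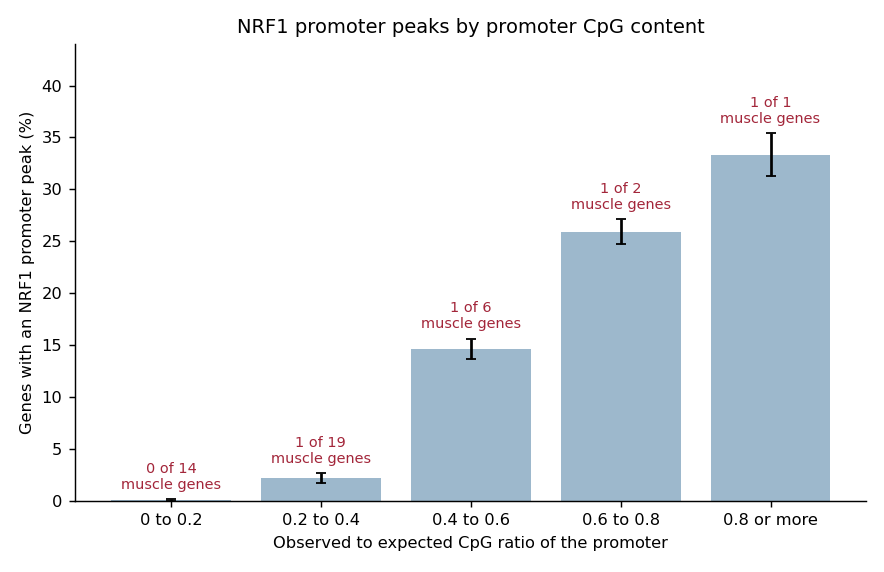
Percent of all protein-coding genes with a promoter peak (bars, starting at 0) by the promoter CpG ratio of the gene, with Wilson 95% intervals for counting error. The text over each bar gives how many muscle genes in that class had a promoter peak, and the bars rise from 0.0424% to 33.3%.

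To show this feature, the 100 bases before the start are given for 5 genes in GRCm38, with each CpG in capitals. Tpm1 (internal start, chr9:67043872-67043971, minus strand) had a peak and 13 CpG. Tpm2 (chr4:43523555-43523654, minus strand) was CpG-rich without a peak and had 10. Acta1 (chr8:123894776-123894875, minus strand), Myh4 (chr11:67237712-67237811, plus strand) and Ckm (chr7:19410994-19411093, plus strand) had no peak, and held 4, 1 and 0.
Tpm1: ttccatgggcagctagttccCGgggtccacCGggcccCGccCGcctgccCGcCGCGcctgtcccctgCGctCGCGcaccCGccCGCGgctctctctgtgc
Tpm2: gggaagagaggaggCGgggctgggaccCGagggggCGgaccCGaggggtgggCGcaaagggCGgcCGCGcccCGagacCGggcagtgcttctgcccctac
Acta1: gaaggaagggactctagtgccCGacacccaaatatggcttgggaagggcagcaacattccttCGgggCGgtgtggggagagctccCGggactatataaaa
Myh4: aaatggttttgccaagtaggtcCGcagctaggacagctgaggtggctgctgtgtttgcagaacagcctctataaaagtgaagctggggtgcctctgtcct
Ckm: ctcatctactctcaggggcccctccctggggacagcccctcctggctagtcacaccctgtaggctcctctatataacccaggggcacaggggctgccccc

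The NRF1 palindrome, searched on both strands with at most 1 mismatch, was found in a promoter of 3 of the 42 genes (7.14%), Mylpf, Tpm1 and Tnni2, and of 2544 of all genes (12.1%). Of the 2544 genes 75.4% had a promoter peak, and of the 3 muscle genes Mylpf and Tpm1 did. An exact palindrome was in no muscle promoter and in those of 367 genes (1.75%). Tnni2, the fast skeletal troponin I, is the exception, because its match had no peak. The match GCGCATGTGC lay at chr7:142441306-142441315, its first base 510 bp before the start, in a promoter with a CpG ratio of 0.213. Over all genes, 55 of the 208 with the palindrome and a ratio under 0.4 had a promoter peak (26.4%), so an unbound match in a CpG-poor promoter was common. The match is shown with its surroundings (chr7:142441286-142441335, plus strand), where it follows a run of gt repeats.
Tnni2: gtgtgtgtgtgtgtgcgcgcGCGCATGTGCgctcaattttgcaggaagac

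The promoters were also searched for short sequences known from muscle genes, from 250 bp before to 50 bp after each start and on both strands. The E-box CAGCTG, which MyoD and its relatives can bind, was found at 18 of the 42 genes (42.9%) and 18.1% of all genes. A CArG box was found at 8 (19.0%) against 1.71% of all genes, these being Myh4, Myl3, Acta1, Neb, Ldb3, Myom1, Myom2 and Dmd. A MEF2 site was found at 8 (19.0%) against 3.16%, in Myh1, Myh4, Myl1, Myl2, Myoz1, Ttn, Myom2 and Dmd. The TATA box TATAAA, whose letters can overlap those of a MEF2 site, was found at 9 (21.4%) against 14.5% of all genes. At least 1 of these 4 was present at 30 of the genes (71.4%) and at 32.4% of all genes, while the NRF1 palindrome with at most 1 mismatch was in this shorter window of 1 gene, Tpm1 (2.38%), against 9.65% of all genes. Of the genes with a peak, Dmd held the CArG box, the MEF2 site and TATAAA in this window of its full-length start, and none of them in that of its downstream start. A match is a description of letters only.

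The nearest summit lay a median of 85640.5 bp from the start over the 42 genes, from 79 bp at Dmd to 3071254 bp at Ttn, whereas the median over all genes was 133148 bp. For the 38 genes without a promoter peak the median was 93048 bp, and for the 18196 genes of the genome without one it was 186893 bp. The nearest summit lay within 50000 bp of 16 of the 42 genes and of 32.5% of all genes. It lay upstream of 22 of the 38 genes and downstream of 16, and for 33 of them it was in the promoter of another gene. No summit lay inside the body of 40 of the 42 genes (95.2%), and the same held for 91.9% of all genes. For a gene with several starts, distances below are from the nearest start and CpG ratios are the highest of its promoters, unless a start is named.

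**Figure D5:**
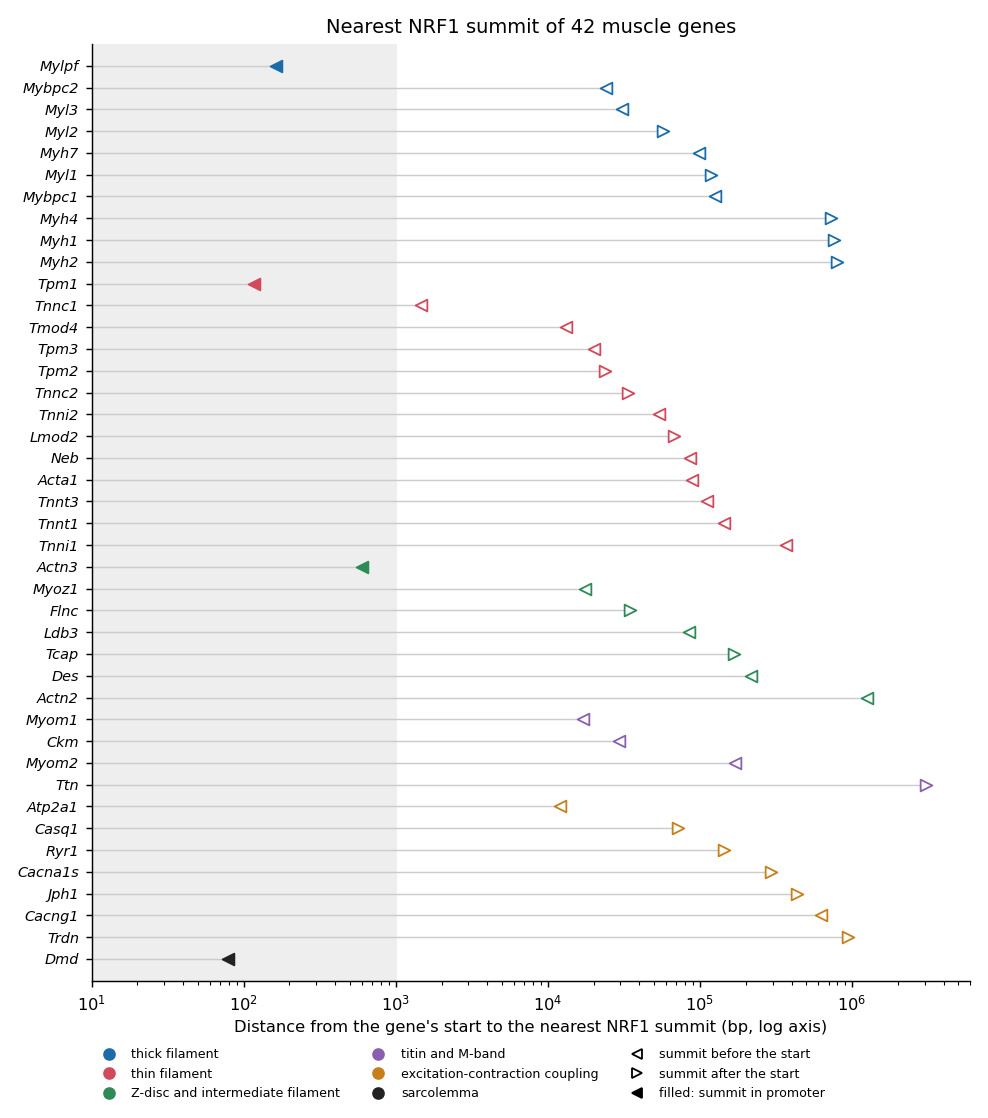
Distance in bp from each muscle gene's start to the nearest summit on a log axis, coloured by role, with triangles for summits before or after the start and filled marks for summits in the promoter. The grey area reaches to 1000 bp. Mylpf, Tpm1, Actn3 and Dmd lie inside it, Tnnc1 lies just beyond at 1455 bp, and every other gene lies beyond 10000 bp.

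In the thick filament 1 of the 10 genes had a promoter peak, Mylpf (10.0%, Wilson interval 1.79 to 40.4%). This share was near the 13.4% of all genes. The median distance of the 10 genes to a summit was 108058.5 bp. The fast myosin heavy chains Myh1, Myh2 and Myh4, which stand in 1 cluster, had the same nearest summit, at 765523, 794598 and 727813 bp downstream, and promoter CpG ratios of 0.17, 0.443 and 0.291. The slow heavy chain Myh7 was 97776 bp from its nearest summit, with a ratio of 0.129. The essential light chain Myl1 was 118341 bp away, the slow regulatory light chain Myl2 57241 bp and the slow essential light chain Myl3 30771 bp. All of these had ratios under 0.6. The myosin-binding proteins Mybpc1 (slow) and Mybpc2 (fast) were 126197 and 24160 bp away, with ratios of 0.358 and 0.383.

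In the thin filament, skeletal alpha-actin, Acta1, was 88320 bp from the nearest summit and its promoter ratio was 0.22. Tpm2, beta-tropomyosin, was by the main definition the only CpG-rich muscle gene without a promoter peak. It had 71 CpG, a ratio of 0.612, a GC content of 65.1% and a nearest summit 23840 bp downstream. With CpG content taken within 200 bp of the start Tpm2 was not CpG-rich. In that setting Tpm3, Actn2, Flnc and Jph1 were CpG-rich without a promoter peak. Tpm3, the slow tropomyosin, was 19991 bp away from the start with a ratio of 0.192, and its other start, with a ratio of 0.464, was 26861 bp from the summit. The troponins were CpG-poor whichever fibre type they belong to. The slow troponin T and I, Tnnt1 and Tnni1, were 143092 and 368927 bp away at ratios of 0.132 and 0.0942, and the fast troponin T, Tnnt3, was 110840 bp away at 0.0954. Fast troponin C, Tnnc2, was 33802 bp away at 0.268, and Tnni2 was 53820 bp from a summit that was also the nearest to Tnnt3. Neb, nebulin, the ruler of the thin filament, was 86125 bp away. The pointed-end proteins Tmod4 and Lmod2 were 13101 and 67389 bp away, the nearest summit of Tmod4 having a fold enrichment of 4.3 and a −log10 q-value of 2.16.

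Among the other Z-disc and intermediate filament genes, Actn2, alpha-actinin-2, was among the 2 genes beyond 1000000 bp, at 1249572 bp, although its ratio of 0.486 was close to the 0.555 of Actn3. Myoz1, which binds calcineurin, was 17666 bp from a summit and Flnc, filamin C, was 34461 bp from one. Ldb3, a PDZ and LIM protein, Tcap, the titin cap, and Des, desmin, were 85156, 167244 and 217600 bp away. In the titin and M-band group 0 of 4 genes had a promoter peak, against 13.4% of all genes. The Wilson interval reaches 49.0%, so this count does not set the group apart. With known and predicted starts Myom1 had a promoter peak, as did 13.9% of all genes. Ttn, titin, had the farthest nearest summit of the 42 genes, Myom1 and Myom2, the myomesins, had summits 16917 and 168783 bp away, and Ckm, muscle creatine kinase, 29160 bp. The nearest summit of Myom1 was that of Myl12a, a non-muscle light chain.

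None of the 7 genes of excitation-contraction coupling had a promoter peak, a CpG-rich promoter or the palindrome, against 13.4%, 27.6% and 12.1% of all genes. The Wilson interval for 0 of 7 reaches 35.4%, so these counts do not set the group apart. Jph1 was CpG-rich when CpG content was taken within 200 bp of its start, where its ratio was 0.97. Their median distance to a summit was 293367 bp. Ryr1, the calcium release channel, was 143182 bp away at a ratio of 0.258, and Cacna1s and Cacng1, subunits of the voltage sensor, were 293367 and 627486 bp away at 0.188 and 0.221. Atp2a1, the calcium pump, was the nearest at 12047 bp, with a ratio of 0.102. Casq1, the calcium-storing calsequestrin, was 71846 bp away at 0.248. Trdn, triadin, which anchors calsequestrin to the channel, had 3 CpG, the lowest ratio of the 42 genes (0.0803) and a summit 936032 bp away, and Jph1, junctophilin, which holds tubule and reticulum together, was 432677 bp away at 0.527. The median ratio of these 7 genes was 0.221, beside 0.3 for the thick filament and 0.22 for the thin filament, with no test between the groups.

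To compare, 3 lists of related genes were described in the same way, with 13.4% of all genes as background. Of 48 other sarcomere genes 2 had a promoter peak (4.17%, Wilson interval 1.15 to 14.0%), namely Capzb and Capza2, the subunits of the actin capping protein, with fold enrichments of 6.14 and 25.8. Of 41 other genes of calcium handling and the dystrophin complex 5 had one (12.2%, 5.32 to 25.5%). They were Asph, which gives the junctional protein junctin, at 8.25, Fkbp1a, which binds the calcium release channel, at 18.2, Bin1, which shapes the tubules, at 6.79, Sgcb, beta-sarcoglycan, at 9.03, and Dag1, dystroglycan, at 6.26. Thus 2 of the 9 partners of dystrophin in the list, Sgcb and Dag1, had a promoter peak alongside Dmd. This subset was chosen after its values were seen. Of 30 mostly broadly expressed relatives 4 had one (13.3%, 5.31 to 29.7%), being Actn4 at 19.4, Myl12a at 17.0, Tmod3 at 8.0 and Ldb1 at 5.92. Ldb1 is a LIM-binding cofactor and no paralog of Ldb3, and without it 3 of 29 relatives had one (10.3%). The intervals of all 3 lists included the background. Of the 11 peaks 5 had the palindrome with at most 1 mismatch, at Capza2, Fkbp1a, Sgcb, Actn4 and Myl12a, against 65.9% of all promoter peaks.

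Among the alpha-actinins, Actn4, which is expressed broadly, had a fold enrichment of 19.4 with its summit 15 bp after the start, Actn3 had 4.84 and Actn2 had no promoter peak. Among the tropomodulins, Tmod3, with its summit 1 bp after the start, had a promoter peak and the muscle gene Tmod4 did not. The broadly expressed Actn1 had none either, so a promoter peak was not a general feature of the relatives. The relatives were richer in CpG, with a ratio under 0.3 in 3 of 30, against 25 of the 42 muscle genes and 30 of the 48 other sarcomere genes. Within the list of relatives, however, 1 of the 13 CpG-rich genes had a promoter peak and 3 of the 17 others did, where 27.7% of all CpG-rich genes and 7.9% of all others had one. These counts were 1 of 12 and 4 of 29 for calcium handling and the dystrophin complex, and 1 of 6 and 1 of 42 for the other sarcomere genes. Among the tropomyosins, neither the first start of Tpm1, which gives the long forms, nor the broadly expressed Tpm4 had a promoter peak. These comparisons within families were chosen after their values were seen, and the part of CpG content in them was not tested.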

How the data were processed

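NRF1 ChIP-seq data of wild-type mouse skeletal muscle were analysed. The authors mapped reads to mm10, kept uniquely mapped reads, removed blacklisted regions (the methods name a human build) and called peaks with MACS2 against input DNA; the methods name the broad option, whereas the deposited list has the narrow layout and holds 7 peaks with a q-value above the 0.01 that the methods allow. The deposited fold enrichment is a ratio of signal to control background, significance was deposited as −log10 of p and of q, and the deposited score repeats the q-value and was not used. Read depth is unknown.

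Summits were joined to starts of coding known RefSeq transcripts of GRCm38 with Python 3.11.15, pandas 2.3.3 and pysam 0.24.0. The CpG ratio is the CpG count times the length over the product of C and G counts. The code was tested on simulated data. No test was run, since there is 1 list and 1 group. Wilson intervals cover counting error only. Genes, lists and rules were chosen with earlier results of these data known. By rule, all 42 genes were named, with related genes that had a promoter peak and neighbours whose promoter held a summit within 10000 bp; Actn1, Tpm4 and the neighbours named in the closing observations fall outside it. Alternatives varied the promoter window, overlap, peak threshold, annotation, CpG definition and motif mismatches. An item of the related-gene lists is not reported here and was left out of their counts.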

Additional observations from a re-analysis of the deposited data

How the results depend on the processing

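Of 32 alternative values for 6 results, 26 stayed within 1.5 times the reported value or, for the distance, within its spread, and 6 did not. With known and predicted starts, or with CpG content taken within 200 bp of the start, 5 muscle genes were CpG-rich in place of 3 (Tpm3 and Myom1 were gained in the former, and in the latter the genes were Tpm1, Tpm3, Actn2, Flnc and Jph1, without Mylpf and Tpm2), while the share of all genes went from 27.6% to 31.5% and 55%, and in the latter setting 1 of them had a promoter peak in place of 2. The palindrome was found in 0 muscle genes with no mismatch, in 12 with at most 2 mismatches and in 1 within 200 bp of a start, against 3, with 1.75%, 37.2% and 10.3% of all genes in these settings against 12.1%. The number of muscle genes with a promoter peak ranged from 3 to 5: Actn3 was lost within 500 bp of a start or at a fold enrichment of at least 5, Tnnc1 was gained with 2000 bp before to 500 bp after, and Myom1 with predicted starts. No paired analysis was possible because 1 peak list of 1 group was used, and no replicate could be left out for the same reason. Depth limits every count of genes without a peak.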

Other observations

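The 35 different summits nearest to the muscle genes without a promoter peak had a median fold enrichment of 13.5, from 4.3 to 33.3, beside a median of 10.7 over all peaks. Of the 35 summits, 30 of which lay in a promoter, 26 held the palindrome with at most 1 mismatch within 100 bp. Of all promoter peaks, a set that leaves out peaks outside promoters, 65.9% held it. Among the strongest were those nearest to Tnnt1, in the promoter of Ppp6r1 at 33.3, to Ckm, in the promoter of Ercc2, a DNA repair helicase, at 29.5, and to Ryr1, in the promoters of Eif3k and Map4k1, at 25.9. These neighbours were chosen after their values were seen.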
